A study of Mus musculus with 22 samples.

Results

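Expression of Hox genes of blood stem cells and of their TALE homeobox cofactors was examined in mouse fetal liver haematopoietic stem cells. The set was named gene by gene rather than by a threshold: Hoxa5, Hoxa7, Hoxa9 and Hoxa10 from the Hoxa cluster on chromosome 6, Hoxb4 and Hoxb5 from the Hoxb cluster on chromosome 11, Meis1 on chromosome 11 and Pbx3 on chromosome 2. The choice was made with earlier results of these data known. Each gene was represented by the array probe that carried its symbol alone and had the highest mean over all arrays, which gave a value for all 8 of the 8 genes among 22180 genes measured.

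Wild-type C57Bl/6J livers were dissected at E14.5, in mid-gestation, and the cells were cultured on OP9-DL1, a stromal feeder line that presents a Notch ligand. At 4 h there were 7 GSI and 7 DMSO arrays, and at 10 h 4 GSI and 4 DMSO arrays. GSI is a gamma-secretase inhibitor (1 µM) that blocks the cleavage releasing the active part of Notch, and DMSO is its solvent. SLAM LSK cells, the stem cell gate, were sorted after culture and 1 sample was put on each of 22 arrays. Each biological replicate supplied a GSI and a DMSO sample, so that changes could be read within 7 pairs at 4 h and 4 pairs at 10 h. The sorted cells had been in contact with whole liver cells and feeder cells, and no freshly isolated cells were among the samples used.

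Hox proteins are homeodomain transcription factors whose genes lie in clusters, and genes of the Hoxa cluster are active in blood stem cells and are switched down as the cells mature. Most Hox proteins bind DNA together with TALE homeodomain proteins of the Pbx and Meis families: Pbx raises their DNA-binding selectivity, and Meis1 joins the complex and pairs with Hoxa9 in mouse and human leukaemia. Notch acts through RBPJ, a DNA-binding protein that the cleaved receptor turns from a repressor into an activator, and Hes1 is the textbook target gene.

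The promoters of the 3 genes of the set whose GSI and DMSO values did not overlap at 10 h are shown as the sequence context of those genes. Each is the 250 bases before the annotated start in RefSeq on GRCm38.p6, read 5′ to 3′ on the minus strand that carries the gene, with TGGGAA, the core letters that RBPJ recognises, in capitals. Hoxa9 is at chr6:52227371-52227620, Meis1 at chr11:19018970-19019219 and Hoxa5 at chr6:52204588-52204837.
Hoxa9: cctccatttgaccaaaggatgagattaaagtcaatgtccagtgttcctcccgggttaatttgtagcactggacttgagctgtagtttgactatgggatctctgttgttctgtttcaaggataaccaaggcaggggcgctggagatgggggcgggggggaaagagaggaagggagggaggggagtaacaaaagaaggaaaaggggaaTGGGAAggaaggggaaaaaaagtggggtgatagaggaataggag
Meis1: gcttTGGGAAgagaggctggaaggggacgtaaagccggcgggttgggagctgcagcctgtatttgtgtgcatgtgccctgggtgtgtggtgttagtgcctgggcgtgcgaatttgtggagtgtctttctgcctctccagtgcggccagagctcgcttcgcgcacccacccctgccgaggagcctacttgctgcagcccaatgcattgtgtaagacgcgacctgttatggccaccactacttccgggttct
Hoxa5: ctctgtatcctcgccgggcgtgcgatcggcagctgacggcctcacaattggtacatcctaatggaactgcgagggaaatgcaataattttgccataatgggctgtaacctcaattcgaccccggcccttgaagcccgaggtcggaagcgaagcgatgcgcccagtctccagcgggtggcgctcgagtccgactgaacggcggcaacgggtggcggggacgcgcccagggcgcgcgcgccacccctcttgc
TGGGAA occurred 1 time in the Hoxa9 window, starting 44 bases before the annotated start, and 1 time in the Meis1 window, starting 246 bases before it, and it was not in the Hoxa5 window. Promoter sequence was at hand for 6 of the 8 genes, in 7 windows because Hoxa10 has 2, and the windows of Hoxa7, Hoxa10 and Hoxb4 did not hold the letters either; Hoxb5 and Pbx3 are named only. On either strand, TGGGAA was present in 21.6% of all 32851 promoter windows of the same length. The Meis letters TGACAG (15.9% of all windows) and the Pbx-Hox letters TGATTTAT (0.8%) were searched on both strands and were in none of the 7 windows.

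The log2 values came from a single deposited table, and precision is limited by how many arrays there were. Whether both times were normalized together is not given. Values are log2 levels with SDs, and changes are GSI minus DMSO on the log2 scale with limma standard errors (SE). A gene passed when its limma p-value, adjusted by Benjamini-Hochberg over all 22180 genes, was under 0.05. The block of Notch was visible in Hes1, which fell by 0.97 at 4 h (adjusted p = 0.000199) and fell by 1.36 at 10 h (adjusted p = 4.7e-05) and was lower with GSI in all 11 pairs. Of the genes the sort selects for, Kit averaged 10.04 in GSI and 9.97 in DMSO at 4 h, and 9.30 in GSI and 9.14 in DMSO at 10 h. Slamf1 was low, at 4.01 in GSI and 3.98 in DMSO at 4 h and at 4.97 in GSI and 4.74 in DMSO at 10 h, where the array medians over all probes were 5.03 to 5.12 at 4 h and 4.45 to 4.52 at 10 h. The gene of Sca-1, Ly6a, had no probe with its symbol alone. Of the genes the sort selects against, Cd48 averaged 5.14 in GSI and 5.24 in DMSO at 4 h, and 6.67 in GSI and 6.53 in DMSO at 10 h. Itgam averaged 6.66 in GSI and 6.57 in DMSO at 4 h, and 6.93 in GSI and 6.63 in DMSO at 10 h. The others measured averaged below the array medians in all groups. Genes listed as markers of other cell types were read as well. At 4 h the 12 endothelial markers had a mean level of 7.70 to 10.20 in GSI and 7.60 to 10.19 in DMSO arrays. The 23 stromal markers had 6.48 to 7.56 in GSI and 6.35 to 7.88 in DMSO arrays. Whether the sorted cells themselves express some of the listed genes was not tested, so these means need not measure other cells alone. In bulk samples a change in the share of a cell type and a change in RNA per cell cannot be told apart.

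One pair of arrays stood apart at 4 h. In pair 6, Meis1 was 7.03 in GSI and 7.59 in DMSO, while the other 12 arrays of that time lay between 9.26 and 9.93. Hoxa9 was 5.27 in GSI and 4.97 in DMSO there, against 6.89 to 8.70 elsewhere. Hoxa5, by contrast, was 7.62 in GSI and 7.43 in DMSO, inside the range of the other arrays (6.71 to 7.80). Both members of this pair carried the highest endothelial marker means of the time (10.20 in GSI and 10.19 in DMSO, others 7.60 to 9.42) and the highest Hes1 values (9.01 in GSI and 9.76 in DMSO, others 6.20 to 8.80). They also had the lowest erythroid marker means (6.08 in GSI and 6.38 in DMSO, others 6.65 to 8.18) and the lowest means of genes the sort selects against (4.25 in GSI and 4.4 in DMSO, others 4.58 to 4.99). The part of other cells' RNA in these levels was not tested.

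The comparison at 10 h asks what happens to the set after a longer block. Hoxa9 rose about 2.03-fold with GSI and was the only one of the 8 genes to pass. Hoxa5 and Meis1 were higher with GSI in every pair but did not pass, and the remaining genes had changes of at most 0.38. Across the genome 148 of 22180 genes passed at 10 h (0.667%), 123 of them upward (0.555%). In all, 7 of the 8 genes were higher with GSI on average, and the median change was 0.31, against -0.01 over all genes. Higher in every pair were 4 of the 8, Hoxa5, Hoxa9, Hoxa10 and Meis1, where 8.47% of all genes were, and 4 of the 8 had a higher value with an unadjusted p under 0.05, where 8.29% of all genes did. As the set was chosen with earlier results of these data known, these shares are a description and not a test.

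Hoxa9 encodes the posterior-group Hox protein most closely tied to stem cell expansion and to acute myeloid leukaemia. At 10 h its level was 7.26, 7.52, 7.17 and 6.98 in the GSI arrays of pairs 1 to 4, against 5.53, 6.28, 6.71 and 6.34 in their DMSO partners. All GSI arrays lay above all DMSO arrays, and the DMSO array of pair 1 was the lowest of the 8. The change was 1.02 ± 0.18 (SE, n = 4 pairs, limma adjusted p = 0.0223, 95% interval 0.64 to 1.40), rank 35 of 22180 genes by p. By pair the difference was 1.72, 1.25, 0.46 and 0.64, with an SD of 0.577 against 0.305 at 4 h. The pairs of the first run (mean 1.48) exceeded those of the second (mean 0.55), and neither run passed on its own 2 pairs. The call was lost without pair 1 (0.78, adjusted p = 0.0918) and without the pair block (adjusted p = 0.852). A spread set separately by time gave an adjusted p of 0.0815 and the 10 h arrays alone gave 0.392, in each case for the same change.

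Meis1, the TALE cofactor that cooperates with Hoxa9, was 9.11, 9.09, 9.10 and 9.12 in the GSI arrays at 10 h, against 7.53, 9.01, 8.79 and 8.49 in DMSO. The GSI arrays were nearly identical (SD 0.013) while the DMSO arrays were spread (SD 0.65), and no DMSO array reached the lowest GSI array. The change was 0.65 ± 0.19 (n = 4 pairs, limma adjusted p = 0.127) and did not pass. Its pair differences were 1.58, 0.08, 0.31 and 0.63, with an SD of 0.659 against 0.355 at 4 h. Pair 1, again through a low DMSO array, contributed most, and without that pair the change was 0.34.

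Hoxa5, an anterior-side neighbour of Hoxa7 and Hoxa9 in the cluster, was 6.13, 5.93, 5.73 and 5.85 in GSI at 10 h, against 4.70, 5.62, 5.36 and 5.29 in DMSO. The groups did not overlap and the DMSO array of pair 1 was again the lowest. The change of 0.67 ± 0.16 was positive in 4 of 4 pairs and did not pass (n = 4 pairs, limma adjusted p = 0.0764). Among genes above the median mean level only, its adjusted p was 0.046, with 2 of the set and 2.57% of those genes passing. That was the only setting in which Hoxa5 passed. Without pair 1 the change was 0.41 (adjusted p = 0.25). The limma adjusted p was 0.207 with the spread set by time, 0.505 with the 10 h arrays alone and 0.773 without the pair block. Hoxa9, Meis1 and Hoxa5 were thus the 3 of 8 genes with every GSI array above every DMSO array at 10 h, a pattern found in 312 of 22180 genes (1.41%). At 4 h none of the 8 showed it, where 6 genes of 22180 did (0.0271%).

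**Figure D1:**
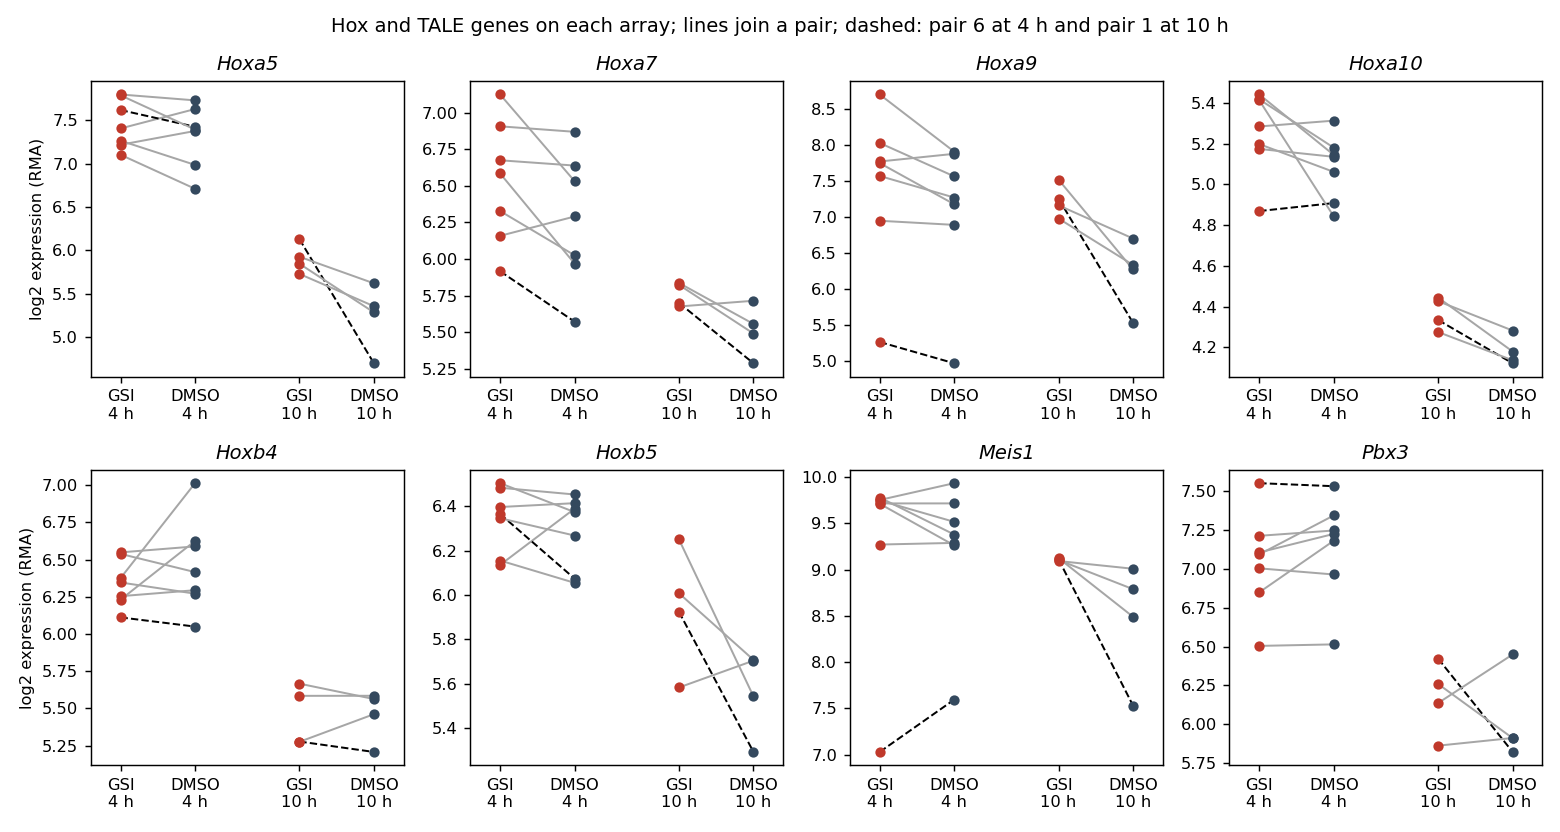
Log2 expression of the 8 genes on each array, with GSI (red) left of DMSO (dark blue) at 4 h and at 10 h; lines join the arrays of a pair and the y axis differs between panels. At 10 h every GSI array lies above every DMSO array for Hoxa9, Meis1 and Hoxa5, and the dashed lines mark pair 6 at 4 h, with the lowest Hoxa9 and Meis1, and pair 1 at 10 h, with the lowest DMSO value of these 3 genes.

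The other Hoxa genes of the set changed less. Hoxa7 was 5.70, 5.68, 5.84 and 5.82 in GSI at 10 h, against 5.29, 5.71, 5.56 and 5.49 in DMSO; the groups overlapped through pair 2, and the change was 0.25 ± 0.13 (n = 4 pairs, limma adjusted p = 0.428). A further probe, annotated to both Hoxa7 and the neighbouring noncoding gene Mira, read differently at 10 h: it was 8.34, 8.27, 8.37 and 7.99 in GSI, against 6.78, 7.52, 7.80 and 7.62 in DMSO. There the GSI arrays all lay above the DMSO arrays, and the change was 0.81 ± 0.19, which did not pass over the 41345 probes (limma adjusted p = 0.145). Which of its 2 genes that probe reads cannot be told apart. Hoxa10, the next gene after Hoxa9 and like it of the posterior group, was 4.33, 4.44, 4.27 and 4.43 in GSI at 10 h, against 4.12, 4.18, 4.14 and 4.28 in DMSO. These values lay close to the array medians, the groups overlapped, and the change of 0.19 ± 0.11 was positive in 4 of 4 pairs (adjusted p = 0.46).

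The Hoxb genes and Pbx3 gave no common direction at 10 h. Hoxb4, known for expanding blood stem cells when overexpressed, was 5.28, 5.58, 5.67 and 5.28 in GSI, against 5.21, 5.59, 5.56 and 5.46 in DMSO. Its change was -0.0031 ± 0.13 with a 95% interval of -0.28 to 0.27 (n = 4 pairs, limma adjusted p = 0.996), so that a change of Hoxa9's size lay outside the interval. Hoxb5, a gene that marks long-term stem cells in adult mouse bone marrow, was 5.92, 6.25, 5.58 and 6.01 in GSI, against 5.29, 5.54, 5.70 and 5.71 in DMSO. Pair 3 ran the other way, the groups overlapped, and the change was 0.38 ± 0.13 (adjusted p = 0.202), while a second Hoxb5 probe changed by 0.04. An antisense gene overlaps Hoxb5 in the RefSeq annotation and the strand of the probes was not given, so the source of the Hoxb5 signal is uncertain. Pbx3, which encodes a Pbx partner of Hox proteins, was 6.42, 6.14, 6.26 and 5.86 in GSI, against 5.82, 6.45, 5.91 and 5.91 in DMSO. It was higher in 2 of 4 pairs with a change of 0.15 ± 0.13 (adjusted p = 0.659), and without pair 1 the change was -0.0045.

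The comparison at 4 h asks how early the set responds. None of the 8 genes passed; over all genes only 1 did (0.00451%), Hes1. The median change of the set was 0.09, against 0.01 over all genes, and 6 of the 8 were higher with GSI on average. Some lists of markers of other cells moved by similar amounts at 4 h. All 10 erythroid genes were lower with GSI (median -0.17), 9 of 11 macrophage markers were higher (median 0.15) and 16 of 23 stromal markers were higher (median 0.07). Smaller medians were found for endothelial markers (6 of 12 higher, median -0.01) and hepatocyte markers (3 of 12 higher, median -0.04). None of these passed, and their part in the changes of the set was not tested. The 3 genes with the smallest p were Hoxa7, Hoxa9 and Hoxa10. Hoxa9 ranged over 5.27, 7.75 and 8.70 in GSI and over 4.97, 7.27 and 7.91 in DMSO (lowest, median and highest of 7 arrays). The groups overlapped widely, yet 6 of 7 pairs were higher with GSI, with differences of -0.11, 0.79, 0.46, 0.30, 0.06, 0.30 and 0.57 for pairs 1 to 7. The change was 0.34 ± 0.14 (n = 7 pairs, limma adjusted p = 0.999, unadjusted p = 0.0235). By run it was -0.11 in the single pair of the first, 0.63 in the 2 pairs of the second, where it passed within that run (adjusted p = 0.042, with 148 of 22180 genes passing there, 0.667%), and 0.31 in the 4 pairs of the third.

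Hoxa7 ranged over 5.92, 6.58 and 7.12 in GSI and over 5.57, 6.29 and 6.87 in DMSO at 4 h, and was also higher in 6 of 7 pairs (0.26 ± 0.10, n = 7 pairs, limma adjusted p = 0.999, unadjusted p = 0.0218). Hoxa10 ranged over 4.87, 5.28 and 5.44 in GSI and over 4.84, 5.14 and 5.31 in DMSO, with 5 of 7 pairs higher (0.17 ± 0.08). An unadjusted p under 0.05 with a higher value in GSI was found for 2 of the 8 genes, Hoxa7 and Hoxa9, against 2.4% of all genes. All groups overlapped.

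The other 5 genes had 4 h changes of at most 0.14 in either direction. Hoxa5 ranged over 7.10, 7.41 and 7.80 in GSI and over 6.71, 7.39 and 7.73 in DMSO (0.14 ± 0.12, 5 of 7 pairs higher). Meis1 ranged over 7.03, 9.71 and 9.78 in GSI and over 7.59, 9.38 and 9.93 in DMSO. It was higher with GSI in only 3 of 7 pairs, with a change of 0.05 ± 0.14 and a 95% interval of -0.26 to 0.35. Hoxb4 ranged over 6.11, 6.35 and 6.55 in GSI and over 6.05, 6.42 and 7.01 in DMSO (-0.12 ± 0.10). Hoxb5 ranged over 6.14, 6.37 and 6.50 in GSI and over 6.05, 6.37 and 6.45 in DMSO (0.05 ± 0.10). Pbx3 ranged over 6.50, 7.09 and 7.55 in GSI and over 6.51, 7.23 and 7.53 in DMSO, and was higher in 2 of 7 pairs (-0.10 ± 0.10).

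**Figure D2:**
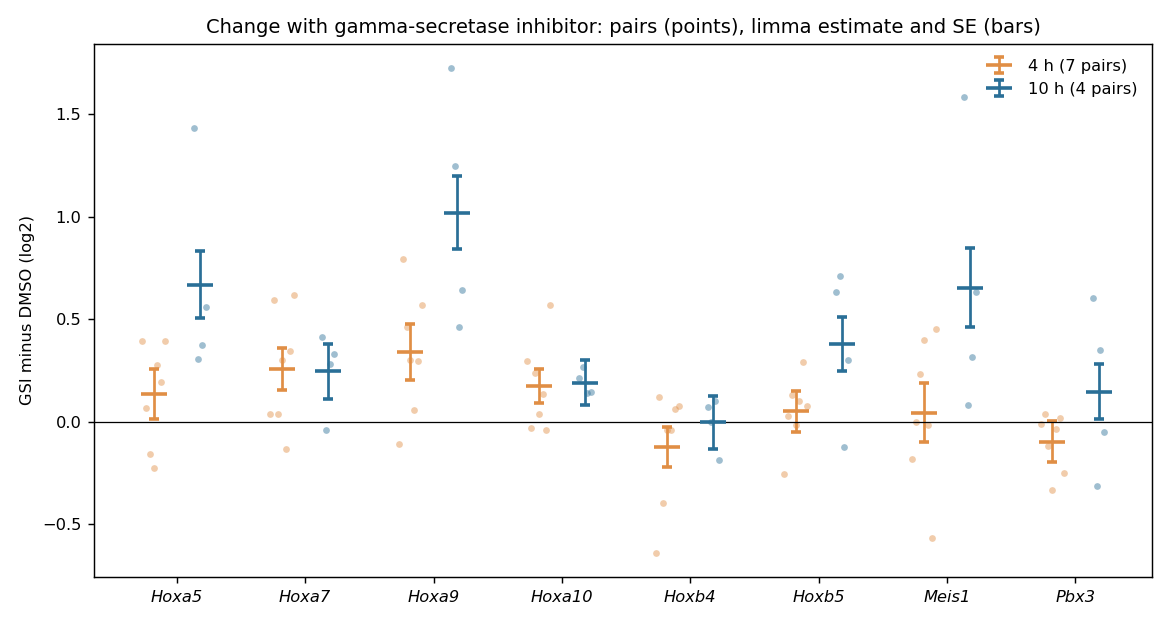
GSI minus DMSO (log2) for each gene, with points for single pairs and bars for the limma estimate with its standard error, at 4 h (orange, 7 pairs) and 10 h (blue, 4 pairs). Hoxa9 reaches 1.02 at 10 h with all 4 pairs above 0, Hoxa5 and Meis1 follow at 0.67 and 0.65, and Hoxb4 is at -0.0031.

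Whether the effect grew between the times was tested as the difference of the changes at 10 h and 4 h. It was 0.68 ± 0.22 for Hoxa9 (95% interval 0.20 to 1.16, limma adjusted p = 0.407), 0.61 ± 0.24 for Meis1 (adjusted p = 0.466) and 0.53 ± 0.20 for Hoxa5 (adjusted p = 0.453). Without pair 1 of 10 h these differences were 0.44 for Hoxa9, 0.30 for Meis1 and 0.28 for Hoxa5. None of the 8 genes passed, where 4 of all genes did (0.018%), and 3 of the 8 had a larger effect at 10 h with an unadjusted p under 0.05, where 4.82% of all genes did. The difference was -0.01 for Hoxa7 (95% interval -0.37 to 0.34) and 0.02 for Hoxa10 (-0.27 to 0.31). Averaged over both times, Hoxa9 passed (0.68 ± 0.11, n = 11 pairs, 10 of 11 higher, limma adjusted p = 0.019, with 0.32% of all genes passing and 0.266% passing upward), and no other gene of the set did. Without pair 7 of 4 h the mean was 0.66 with an adjusted p of 0.0504, and without the pair block the adjusted p was 1. Hoxa5 and Hoxa7 had means of 0.40 and 0.25, each with 9 of 11 pairs higher, and adjusted p-values of 0.109 and 0.237.

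Along the Hoxa cluster the 10 h changes were not even. In the order of the genes on the chromosome, and including those outside the set, they were 0.24 for Hoxa2, 0.19 for Hoxa3, 0.37 for Hoxa4, 0.67 for Hoxa5, 0.73 for Hoxa6, 0.25 for Hoxa7, 1.02 for Hoxa9, 0.19 for Hoxa10 and -0.07 for Hoxa13. Hoxa6 was 5.90, 6.08, 5.64 and 5.59 in GSI, against 4.50, 5.31, 5.18 and 5.29 in DMSO, with no overlap and with the DMSO array of pair 1 lowest once more (0.73 ± 0.17, n = 4 pairs, limma adjusted p = 0.0599). Hoxa4 did not pass either, with 4 of 4 pairs higher (adjusted p = 0.254). At 4 h the change was 0.08 for Hoxa6 and -0.0022 for Hoxa4. In the Hoxb cluster no gene differed by more than 0.25 at 10 h other than Hoxb5. Of 30 other Hox genes measured, none passed at either time by limma (at 10 h 2 were higher and 3 lower with an unadjusted p under 0.05, and at 4 h 1 was higher). At 10 h 15 of the 30 were positive, and the median change was -0.03. Hoxd11, the remaining one of the 3 with the smallest p, had a change of -0.22 and sat below the array medians.

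**Figure D3:**
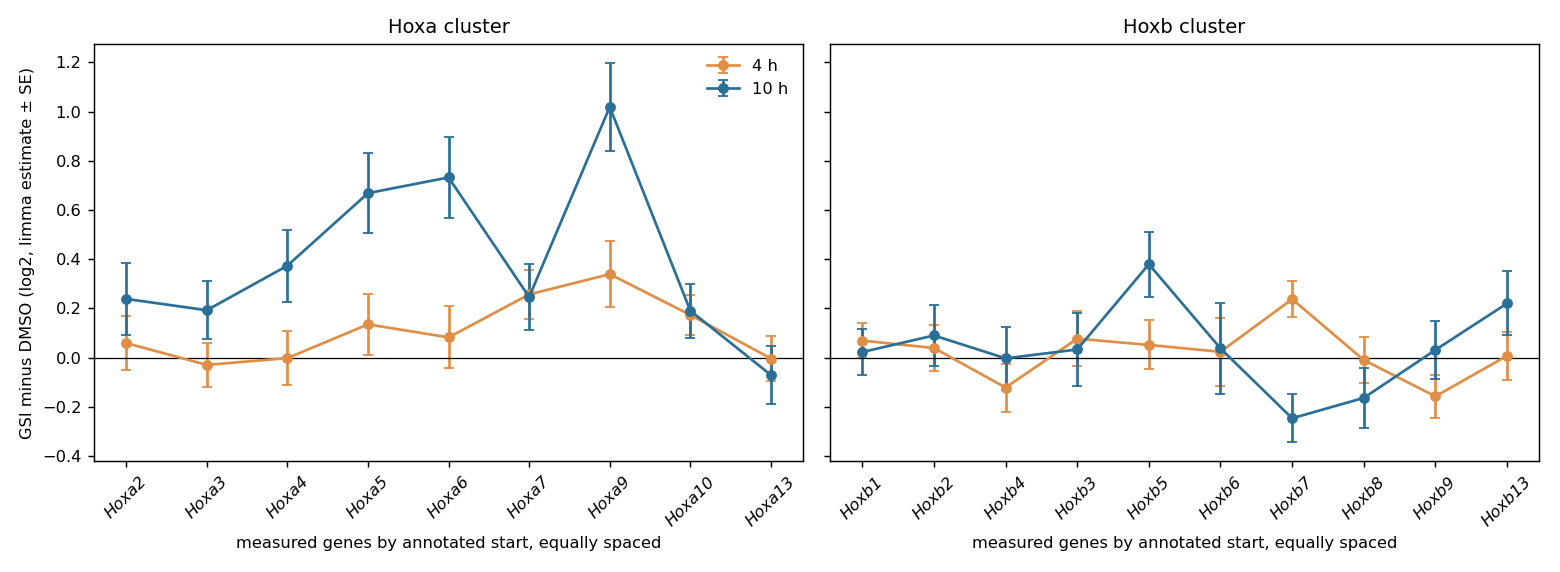
GSI minus DMSO (log2, limma estimate with standard error) for the measured genes of the Hoxa and Hoxb clusters, ordered by annotated start and equally spaced, at 4 h (orange) and 10 h (blue). In the Hoxa cluster Hoxa5, Hoxa6 and Hoxa9 stand at 0.67, 0.73 and 1.02 at 10 h with lower values for Hoxa7 and Hoxa10 beside Hoxa9, and in the Hoxb cluster the largest 10 h value is 0.38, for Hoxb5.

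Other TALE genes gave no call. Of 8 measured, none passed by limma, with 1 higher and 1 lower at an unadjusted p under 0.05 at 10 h; 4 were positive and the median change was 0.0003. For Pknox1, which encodes a Meis-related Pbx partner, the change was 0.45 ± 0.12 (4 of 4 pairs higher, limma adjusted p = 0.101). Pbx2, another Pbx gene, had a change of 0.26, positive in 4 of 4 pairs (adjusted p = 0.387). Tgif1, a TALE repressor gene, had a change of -0.36 (adjusted p = 0.306). Meis2 changed by -0.27 at 10 h and by 0.24 at 4 h.

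Genes of the machinery that keeps Hox genes on or off were compared next. On the activating side, which holds MLL, menin, elongation factor and Cdx genes, 1 of 20 measured genes rose at 10 h and none fell, beside 0.555% of all genes passing upward, with a median change of 0.07. The gene that rose was Mllt3, encoding AF9, an elongation complex subunit and a regulator of stem cell maintenance. Mllt3 was 8.45, 8.64, 8.01 and 7.82 in GSI, against 7.65, 8.01, 7.92 and 7.19 in DMSO. It was higher in 4 of 4 pairs although the groups overlapped across pairs (0.54 ± 0.10, limma adjusted p = 0.0368). Kmt2a, the gene of MLL1 itself, was 0.27 higher (adjusted p = 0.141) and Men1, the gene of menin, 0.36 higher (adjusted p = 0.21).

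On the Polycomb side, which keeps Hox genes silent, 1 of 17 measured genes rose and none fell, beside the same 0.555% of all genes, with a median change of 0.02. That gene was Ezh1, a histone H3 lysine methyltransferase of Polycomb complex PRC2, at 6.44, 6.94, 6.45 and 6.37 in GSI, against 5.56, 6.10, 5.94 and 6.10 in DMSO, with no overlap (0.62 ± 0.13, limma adjusted p = 0.0396). Its paralogue Ezh2 changed by 0.10. The change was 0.54 for Phc1 (4 of 4 pairs higher, adjusted p = 0.0781) and 0.63 for Pcgf2 (3 of 4 higher, adjusted p = 0.101); both encode subunits of Polycomb complex PRC1. At 4 h no gene of either side passed by limma, and 1 Polycomb gene was higher with an unadjusted p under 0.05. Without pair 1, neither Mllt3 (0.45, adjusted p = 0.135) nor Ezh1 (0.54, adjusted p = 0.148) passed at 10 h.

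Among 16 genes described as targets of Hoxa9 or Meis1 in mouse blood progenitors or leukaemia cells, 3 rose at 10 h and none fell, beside 0.555% of all genes passing upward. The median change of the list was 0.22, 10 of 16 were positive, and the list was written with earlier results of these data known. Flt3, the receptor tyrosine kinase gene of early progenitors, was 6.58, 6.13, 5.87 and 6.13 in GSI, against 4.62, 4.93, 4.96 and 5.08 in DMSO. The groups were well separated and the change was 1.28 ± 0.17 (n = 4 pairs, limma adjusted p = 0.00373). Erg, an ETS factor gene required by stem cells, rose by 0.58 ± 0.13 and Foxp1, a forkhead repressor gene, by 0.57 ± 0.12 (adjusted p = 0.0495 each, higher in 4 of 4 pairs). Without pair 1 only Flt3 of the 3 passed (1.05, adjusted p = 0.019), and the changes were 0.37 for Erg and 0.40 for Foxp1. No gene of the list passed by limma at 4 h, where 3 were higher with an unadjusted p under 0.05 and Flt3 was 0.40 higher in 6 of 7 pairs.

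**Figure D4:**
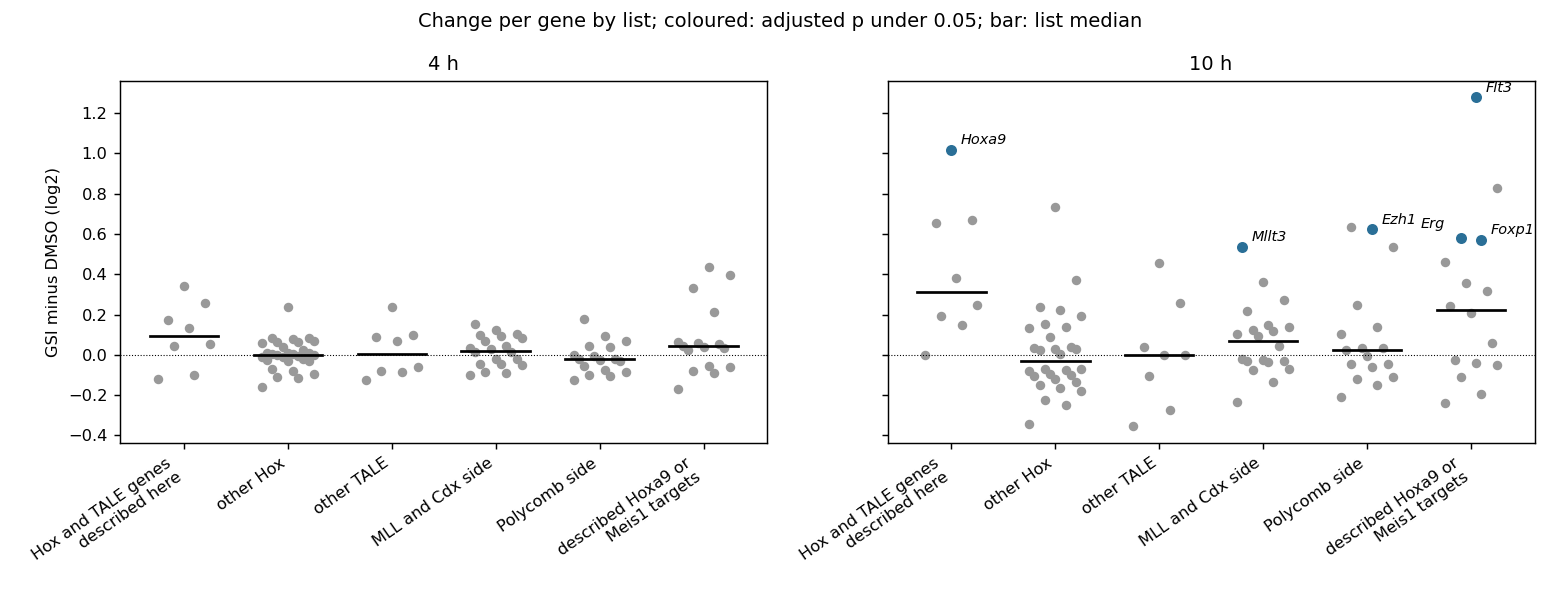
GSI minus DMSO (log2) of each measured gene of the set, the other Hox and TALE genes, both sides of Hox control and the described targets at 4 h (left) and 10 h (right), with genes that passed coloured and named and with the list median as a bar. None of these genes passed at 4 h; among these lists Hoxa9, Mllt3, Ezh1, Flt3, Erg and Foxp1 passed at 10 h, and their medians ran from -0.03 for other Hox genes to 0.31 for the 8 genes of the set.

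Markers of other cells moved at 10 h as well, and their part in the changes was not tested. Of the 23 stromal markers 20 were lower with GSI, with a median change of -0.31, and Cd248, a stromal surface gene, fell by 1.33 (limma adjusted p = 0.0391, and 0.108 without pair 1, where the change was -1.38). Without pair 1 another stromal marker, Sparc, passed as lower, and the list median was -0.44. The mean level of the stromal markers was 4.93 to 5.85 in GSI and 5.22 to 6.45 in DMSO arrays. By pair this mean differed by 0.11, -0.69, -0.60 and -0.29. The 12 endothelial markers had a median change of 0.04 and pair differences of 0.39, -0.27, -0.11 and -0.09, with mean levels of 5.86 to 7.22 in GSI and 5.96 to 7.45 in DMSO arrays. They went both ways at an unadjusted limma p under 0.05, so the list median does not speak for all of its genes. Higher were 4 of 12: Eng, Esam (0.42), Tie1 (0.39) and Emcn (0.24). Lower were 4 of 12: Lyve1, Cldn5, Stab2 (-0.40) and Kdr (-0.30). The change was 0.48 for Eng, a TGF-beta co-receptor gene (higher in 4 of 4 pairs). It was -0.73 for Lyve1, a hyaluronan receptor gene of sinusoidal and lymphatic endothelium (lower in 3 of 4), and -0.59 for Cldn5, a tight junction gene (lower in 4 of 4). None passed over all pairs by limma (adjusted p = 0.0559, 0.0559 and 0.144), and Lyve1 passed as lower without pair 1. Of 10 measured erythroid genes 9 were lower with GSI at 10 h (median -0.14, none passed), with -0.36 for Klf1, -0.19 for Gata1 and -0.13 for Rhd. Of 11 macrophage markers 8 were lower (median -0.09), with -0.53 for Csf1r, 0.47 for Cd68 and -0.53 for Marco. Of 12 hepatocyte markers also 8 were lower (median -0.01), with -0.47 for Apoa1, -0.30 for Apoa2 and 0.29 for Ahsg, and none of either list passed. By pair the hepatocyte mean differed by -0.32, -0.68, 1.15 and -0.28, so the median near 0 hides a large rise in pair 3. Among 6 genes the sort selects against, the change was 0.29 for Itgam, 0.14 for Cd48 and -0.10 for Cd3e, and none passed.

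Across the 11 pair differences the members varied together only in part. Of the 28 pairs of genes 24 had a Pearson correlation above 0 and 6 above 0.5. Hoxa9 went most closely with Hoxb5 (r = 0.81, Spearman rho = 0.62) and Meis1 (r = 0.70, rho = 0.62), and with Hoxa5 at r = 0.63 (rho = 0.33). The Hoxb5 correlation rests on 1 probe. The second Hoxb5 probe differed by 0.69, -0.34, 0.12 and -0.30 in pairs 1 to 4 of 10 h, and its correlation was not computed. The correlations share arrays and 2 time points, and they leaned on pairs 1 and 2 of 10 h. Without these pairs, r with Hoxa9 was 0.42 for Hoxb5, 0.48 for Meis1 and -0.04 for Hoxa5, but 0.76 for Hoxa7. Over all 22180 genes, the 3 with the pair differences most like those of Hoxa9 were Rpl34 (r = 0.94), Top3b (r = 0.93) and Swsap1 (r = 0.93). For Meis1 they were Wdr13, Pstpip1 and Dapp1 (r from 0.94 to 0.96), for Hoxa5 Arid1b, Prkag2 and Ctc1 (0.90 to 0.93), for Hoxb5 Pcgf2, Rptoros and Fam199x (0.92 to 0.93) and for Pbx3 Atxn7, Naa50 and Ddx39a (0.92 to 0.95). For Hoxb4 they were Rbm43, Nat8f3 and Akp3 (0.90 to 0.93), for Hoxa7 Padi4, Erap1 and Olfr401 (0.83 to 0.85), and for Hoxa10 Olfr683, A330076C08Rik and Gm5420 (0.87 to 0.91). These are the highest r values over 22180 genes on 11 pair differences, so values this high can arise without any relation. Their reliance on pairs 1 and 2 of 10 h was not tested. None of these nearest genes passed at 10 h by limma. Padi4, Akp3, Olfr683, A330076C08Rik and Gm5420 had mean levels over all arrays of 3.38 to 3.74, below the array medians of both times. No member was among the 3 nearest genes of another, which says little, as the set is 8 of 22180 genes.

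The 4 groups were last compared by time, after quantile normalization of all 22 arrays together, because the deposited values of all genes were a median of 0.42 lower at 10 h than at 4 h in GSI and 0.41 lower in DMSO. After it these medians were 0.04 in both. Run and time cannot be told apart, as each run was of one time. Hoxa5 was lower at 10 h in both arms. Its normalized level was 6.35 ± 0.16 at 10 h (n = 4) and 7.21 ± 0.29 at 4 h (n = 7) in GSI, a change of -0.86 ± 0.16 (limma adjusted p = 0.00151). In DMSO it was 5.68 ± 0.41 at 10 h and 7.10 ± 0.36 at 4 h, a change of -1.42 ± 0.22 (adjusted p = 0.000693). No 10 h array reached a 4 h array in GSI, and none did in DMSO. The highest mean was that of GSI at 4 h, followed by DMSO at 4 h, GSI at 10 h and DMSO at 10 h, and the 2 groups of 4 h did not differ beyond their spread.

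Hoxa10 fell by 0.35 in DMSO (adjusted p = 0.016), with levels of 4.51 ± 0.07 at 10 h and 4.86 ± 0.14 at 4 h. After subtraction of array medians in place of quantile normalization the change was -0.24 and did not pass (adjusted p = 0.0554), which left 1 of the 8 genes, where 52.7% of all genes passed. In GSI its change was -0.24 (adjusted p = 0.103), with 4.78 ± 0.09 at 10 h and 5.02 ± 0.19 at 4 h. For Hoxa9 the change was 0.36 in GSI and -0.20 in DMSO, and for Meis1 0.21 in GSI and -0.30 in DMSO; none of these passed (adjusted p from 0.579 to 0.759), and pair 6 widened the 4 h spread of both (SD of 1.09 and 1.04 in GSI). Hoxa7, Hoxb4, Hoxb5 and Pbx3 did not pass in either arm. In GSI 1 of the 8 genes passed, where 37% of all genes did and 16.1% did so downward, and in DMSO 2 of the 8, where 34.1% of all genes did and 15.3% downward. In the values as deposited 6 of the 8 passed in each arm, where 67.2% of all genes did in GSI and 60.2% in DMSO.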

How the data were processed

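RNA of sorted fetal liver stem cells was labelled and hybridised to 22 1-colour arrays. The deposited values are log2 expression, for which the submitters' processing notes name Partek 6.6 and RMA as the authors' tools; the genome build of the array and whether both times were normalized together are not given in the sources used here. The members and gene lists were chosen with earlier results of these data known. Of 41345 probes, 23521 had 1 gene symbol in the platform annotation, 1814 had several and 16010 had none listed; genes with several usable probes took the one with the highest mean, which left 22180 genes, with no filter on low values. Detection calls were not used here.

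Changes were fitted with limma 3.58.1 in R 4.3.3 (lmFit, eBayes with an intensity trend) to all 22 arrays with the pair as a fixed block, 2-sided and adjusted by Benjamini-Hochberg over all genes. All p-values of single genes are from this fit unless stated otherwise. The pairing comes from the series' design text. The deviations of partners from their group means correlated at 0.223 to 0.872 at 4 h, where 6 of 7 arrays went best with their own partner, and at 0.213 to 0.449 at 10 h, where 4 of 4 did. Runs are codes in the sample descriptions: pair 1, pairs 2 and 3, and pairs 4 to 7 at 4 h, and pairs 1 and 2 and pairs 3 and 4 at 10 h; their meaning is not given.

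Time was tested on 11 arrays per arm after quantile normalization of all arrays. The fit was tested on simulated data. Genes outside the set were named by rule: those of a list that passed at either time, otherwise up to 3 with the smallest p at 10 h, and the 3 genes nearest to each member by correlation of pair differences. Kmt2a, Men1, Phc1, Pcgf2, Ezh2, Meis2, Hoxb7, Hoxa2, Hoxa3, Hoxa13, Sparc, Esam, Tie1, Emcn, Stab2 and Kdr were named beside them after their values were seen.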

Additional observations from a re-analysis of the deposited data

Results flagged for a closer look

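In pair 6 of 4 h a single array lay far from the other 6 of its group in 3 cases: Hoxa9 in DMSO at 4.97 (next lowest 6.89), Meis1 in GSI at 7.03 (next lowest 9.27) and Meis1 in DMSO at 7.59 (next lowest 9.26). Pbx3 in DMSO of pair 2 at 10 h was the highest of its group at 6.45, with the other 3 at or below 5.91. These were 4 of 48 groups of values tested for a lone value, and chance flags about 1 in 20. The probe shared by Mira and Hoxa7, which no comparison of single genes uses, had a change of 0.81 at 10 h, higher with GSI in 4 of 4 pairs, and did not pass (limma adjusted p = 0.145 over all probes).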

How the results depend on the processing

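The call of Hoxa9 depended on the pair block and, at 10 h, also on the shared spread and on pair 1. With no replicate block its change at 10 h was 1.02 (adjusted p = 0.852) and its mean over both times 0.68 (adjusted p = 1), and the genes of the set that passed were 0 in both comparisons. At 10 h Hoxa9 also did not pass with the spread set by time (1.02, adjusted p = 0.0815), with the arrays of that time alone (1.02, adjusted p = 0.392), within run 1 (1.48, adjusted p = 0.618) or run 2 (0.55, adjusted p = 0.597), or without both pair 6 of 4 h and pair 1 of 10 h, a setting chosen after seeing the data (0.78, adjusted p = 0.122), and the count of the set was 0 in each. The mean over both times was 0.57 without those 2 pairs (adjusted p = 0.0589, count 0). The count at 10 h was 2 among genes above the median level, where 285 of 11090 genes passed (2.57%). At 4 h it was 1 within run 2, where 148 of 22180 did (0.667%). With single pairs left out, Hoxa9 at 10 h lay between 0.78 and 1.20 and the count between 0 and 1. Its mean lay between 0.56 and 0.77, with a count of 0 to 1, and the call was lost without pair 7 of 4 h (0.66, adjusted p = 0.0504). All genes passing at 10 h ranged from 0 to 285, and at 4 h from 0 to 148.

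For time, the count of the set was 6 in each arm in the values as deposited (67.2% of all genes in GSI, 60.2% in DMSO), and 1 in DMSO after subtraction of array medians, where Hoxa10 was lost (52.7% of all genes); with single pairs left out it was 1 to 2 in GSI and 2 to 3 in DMSO. In the values as deposited the change in GSI was -0.20 for Hoxa9, -0.40 for Hoxb5 and -0.18 for Meis1, and in DMSO -0.73 for Hoxb5 (-0.0643 after subtraction of medians). All of these had the opposite sign in the main fit. As deposited, Hoxb5 passed as lower in both arms (limma adjusted p = 0.0197 in GSI and 0.00048 in DMSO). Other values that changed sign, none of which passed, were Hoxa5 at 4 h within run 2 (-0.0457), Hoxb4 within run 3 of 4 h (0.0142) and run 1 of 10 h (0.0349), Hoxa10 in the difference between times (-0.0259 without both pairs) and Pbx3, at -0.0045 at 10 h without both pairs and with a mean of -0.0165 after quantile normalization, -0.0111 after cyclic loess and -0.0613 without both pairs. Leaving out single pairs turned the sign of Meis1 at 4 h (-0.0223 to 0.15), Hoxb4 at 10 h (-0.0386 to 0.0577), Pbx3 at 10 h (-0.0045 to 0.30) and in the mean (-0.0514 to 0.10), Hoxa7 (-0.0752 to 0.0848) and Hoxa10 (-0.0184 to 0.0833) in the difference between times, and, for time, Hoxa7 (-0.14 to 0.0357) and Meis1 (-0.17 to 0.30) in GSI and Hoxa7 (-0.13 to 0.0834), Hoxa9 (-0.55 to 0.0077) and Hoxb5 (-0.0591 to 0.10) in DMSO. The cause was not tested. Of 860 values of single genes under other settings, 797 kept their direction and their side of the threshold. Many of these could not change: leaving out a 10 h pair left the 4 h changes as they were, and averaging probes moved only Hoxb5. The count is therefore no measure of how firm a call is. At 10 h the call of Hoxa9 held in 15 of 22 settings and was lost in 7. Detection calls were not used, so signal over background is not known for low genes such as Hoxa10.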

Other observations

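At 4 h the levels of Hoxa9 and of the 12 endothelial markers separated the arrays by run in both arms, a pattern picked after the values were seen and described with no test. In GSI, Hoxa9 was 5.27 to 7.75 on the 4 arrays of run 3 and 7.77 to 8.70 on the 3 arrays of runs 1 and 2. The endothelial marker mean in GSI was 9.0 to 10.2 in run 3 and 7.70 to 8.79 in runs 1 and 2, and Hes1 was 7.13 to 9.01 and 6.20 to 7.07 in the same order of runs. In DMSO, Hoxa9 was 4.97 to 7.27 in run 3 and 7.57 to 7.91 in runs 1 and 2, and Meis1 was 7.59 to 9.38 and 9.52 to 9.93. The endothelial marker mean in DMSO was 9.07 to 10.19 in run 3 and 7.60 to 8.78 in runs 1 and 2, while Hes1 overlapped between the runs (8.08 to 9.76 in run 3 and 7.49 to 8.30 in the others). Meis1 in GSI overlapped as well, at 7.03 to 9.78 in run 3 and 9.71 to 9.75 in runs 1 and 2. Run and cell mixture cannot be told apart in these levels, and no relation over all 7 arrays is given.

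Hoxb7, a gene of the Hoxb cluster with a mean level of 4.24, was higher with GSI in 7 of 7 pairs at 4 h (0.24 ± 0.07) and lower in 4 of 4 pairs at 10 h (-0.25 ± 0.10). It was picked after its values were seen, and the difference between the times of -0.48 ± 0.12 did not pass (limma adjusted p = 0.389).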
